A study of Mus musculus with 8 samples.

Results

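The genes described here encode subunits of the NuRD (nucleosome remodelling and deacetylase) complex, a partner of Ikaros in lymphocytes. They are *Chd4*, *Mta1*, *Mta2*, *Mta3*, *Hdac1*, *Hdac2*, *Rbbp4*, *Rbbp7*, *Mbd3* and *Gatad2a*, 10 of the 21142 mouse protein-coding RefSeq genes with a known strand. They were listed by name, and each was described by the called H3K27ac peaks in its gene body plus 5 kb on either side (GRCm38). The series holds 8 libraries, of which the H3K27ac ChIP-seq libraries of wild-type (wt) and ΔIkE120 P5424 cells were used, 1 per genotype. P5424 is a mouse T-cell precursor line. The ΔIkE120 cells are 1 clone in which IkE120, an enhancer upstream of *Ikzf1*, was removed from both alleles with CRISPR/Cas9. Whether the ChIP-seq cells had been stimulated is not stated. There are no replicates, so differences between the libraries have no error estimate, and a difference between genotypes cannot be told apart from one between clones or preparations.

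NuRD joins an ATP-driven nucleosome remodeller to histone deacetylases, which remove acetyl groups from histone tails, H3K27 included. In lymphocytes Ikaros brings the complex to DNA, and in thymocytes CHD4 and Ikaros have been tied to both silencing and activation of genes. H3K27ac itself marks active promoters and enhancers, and it is carried by nucleosomes on either side of an active start. The values below describe the mark at the genes of the complex, not the binding or the activity of the complex.

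In wt cells 25189952 bp lay in 34553 called peaks, whose median length was 603 bp. In ΔIkE120 cells 22143580 bp lay in 29902 peaks of a median 628 bp. All covered bases thus stood at a log2 ratio of ΔIkE120 to wt of -0.19. The depth of the libraries is not known, so lengths and positions of called peaks were compared, and heights were read within a list only. At IkE120 the lists differed as the labels say. In wt cells a peak of 1644 bp (chr11:11563705-11565348) covered all 252 bases of the interval that the methods of the study give for the IkE120 locus. The deleted stretch is longer than this interval. In ΔIkE120 cells 0 bases of the interval were covered, and the nearest peak, of 712 bp, began beside it at 11564652. The T-cell precursor label was checked by marker genes. All 12 of 12 T precursor genes, among them *Cd3e*, *Rag1*, *Ptcra* and *Bcl11b*, had a peak within 1 kb of the start in both lists. Of 4 myeloid genes measured only *Cd14* had one. Of 3 erythroid genes *Epor* and *Klf1* had one and *Gata1* had none. None of 4 embryonic stem cell genes and none of 5 fibroblast genes had a start peak in either list.

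All 10 listed NuRD genes carried H3K27ac at the start. A start was counted when a peak overlapped the 1 kb on either side of it by at least 1 base, and this held for 10 of 10 members in wt cells and 10 of 10 in ΔIkE120 cells. Among all protein-coding genes the share was 44.5% (9410) in wt cells, 43.9% (9278) in ΔIkE120 cells and 43.4% (9176) in both lists. A start peak in the wt list alone was seen at 1.11% of genes and in the ΔIkE120 list alone at 0.482%, and at none of the members. Within the 2 kb around the start, the members had a median of 1320 bp in peaks in wt cells and 1302 bp in ΔIkE120 cells. The medians of all genes with a start peak in both lists were 1107 bp and 1082 bp. The surplus lay on the gene side: downstream of the start the medians in wt cells were 924.5 bp for the members and 720 bp for all such genes, whereas upstream they were 421.5 bp and 404 bp. The start windows together held 55.7% of the members' covered bases in wt cells and 53.8% in ΔIkE120 cells.

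**Figure D1:**
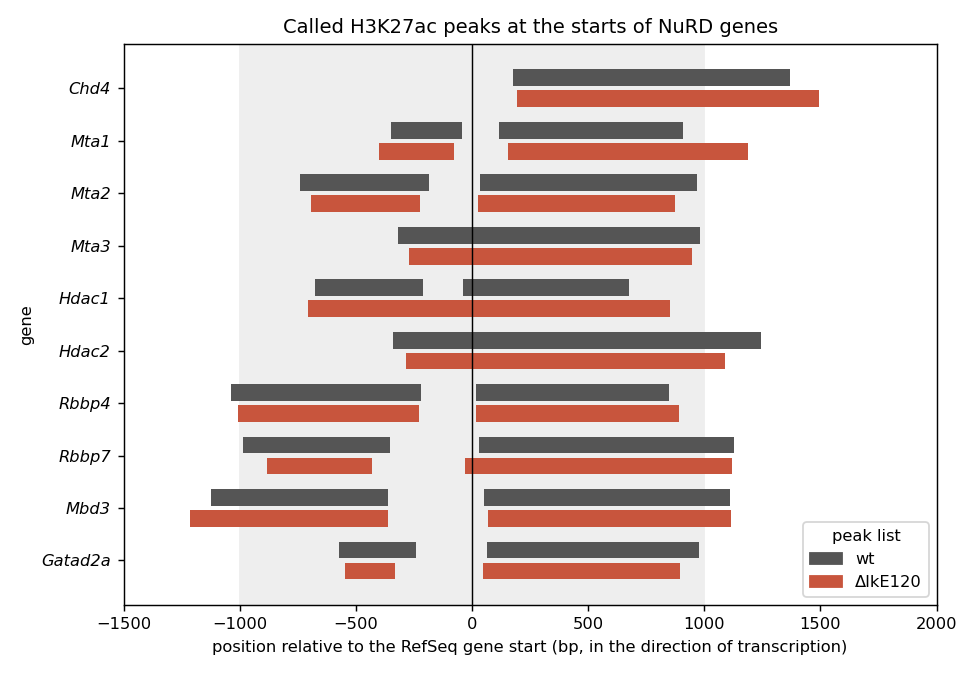
Called H3K27ac peaks that overlap the 1 kb on either side (grey band) of the RefSeq start (vertical line) of each NuRD gene, in bp along the direction of transcription, with grey bars for wt and red bars for ΔIkE120 cells, 1 library each. Peaks flank an uncovered start at 6 genes in wt cells and at 5 in ΔIkE120 cells, and the *Hdac1* peaks, 714 bp and 464 bp in wt cells, form 1 peak of 1559 bp in ΔIkE120 cells.

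At several members the start itself lay in a stretch without a called peak, between a peak upstream and a peak downstream. This was so for 6 of 10 members in wt cells (*Mta1*, *Mta2*, *Rbbp4*, *Rbbp7*, *Mbd3* and *Gatad2a*) and for 5 of 10 in ΔIkE120 cells, where the *Rbbp7* start was inside a peak. Over all 9176 genes with a start peak in both lists, 12.3% of starts lay between peaks in wt cells and 11.9% in ΔIkE120 cells, and 68.5% and 67.4% lay inside a peak. A pair or more of peaks in the start window was found at 7 of 10 members and 21.6% of these genes in wt cells, and at 6 members and 20.7% in ΔIkE120 cells. This split was noticed after the peaks had been seen. When only peaks at or above the median fold enrichment of their list were kept, the count of starts between peaks was 3 of 9 members in wt and 4 of 9 in ΔIkE120 cells, beside 6.1% and 5.67% of all genes with a start peak in both lists. With the median -log10 q as the limit it was 4 of 10 in each, beside 8.08% and 7.28%. The uncovered stretch at the 6 members was 161 bp (*Mta1*) to 415 bp (*Mbd3*) long in wt cells, and its median over 1130 genes with this layout was 272 bp.

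Over the whole windows the genotypes differed little. With all peaks and flanks of 5 kb, no member window differed by 1.5 fold or more in covered bases: 0 of 10 were higher in ΔIkE120 cells, beside 2.11% of the 11625 gene windows with a mean of at least 500 covered bases, and 0 of 10 were lower, beside 8.85%. The 10 member windows together held 23856 covered bases in wt and 24398 in ΔIkE120 cells, a ratio of 1.02. The ratio of all covered bases, which takes in peaks outside gene windows and is not a like measure, was 0.879. The members' log2 ratios of ΔIkE120 to wt had a median of 0.00 and ran from -0.35 at *Mta1* to 0.28 at *Gatad2a*. In covered bases 6 genes were higher and 4 lower in ΔIkE120 cells, the higher ones including *Rbbp4* by 1 bp and *Mbd3* by 6 bp. Of all gene windows with a ratio, 62.8% lay at or below that of *Rbbp4*, the lowest of the 6. In 2 of 8 alternative settings 1 member was at least 1.5 fold higher in ΔIkE120 cells, *Gatad2a* in the gene body without flanks (2.78% of all windows at that setting) and *Mta1* without the peaks below the median fold enrichment (5.52%). Over all gene windows the median log2 ratio was -0.07, with quartiles of -0.27 and 0.08. Dividing by the ratio of all covered bases adds 0.19 to every one of these values, which puts *Mta2*, *Rbbp7* and 6 further members above 0 and leaves *Mta1* and *Hdac2* below. Most gene windows also end above 0 after this step. Of all gene windows with a ratio, 36% lay at or below that of *Mta2* and 31.5% at or below that of *Hdac2*.

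**Figure D2:**
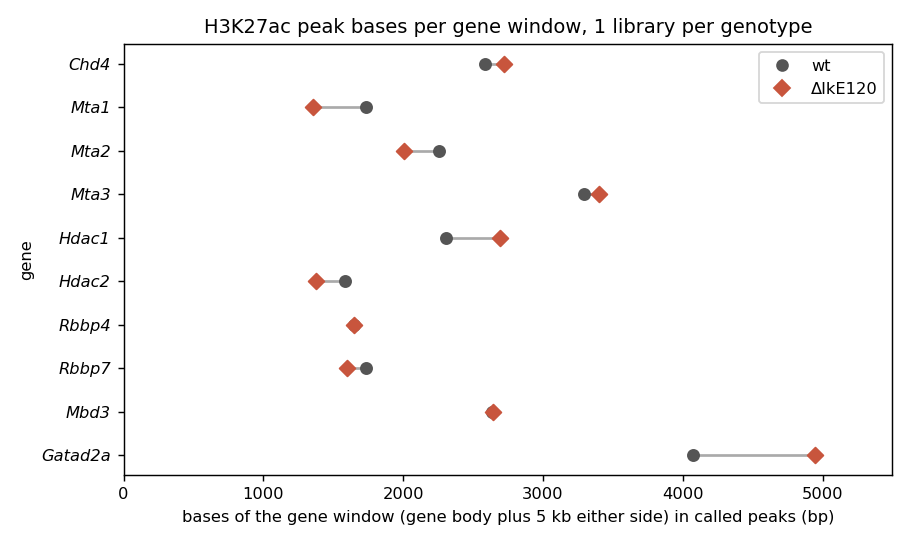
Bases in called H3K27ac peaks, in bp, in the window of each NuRD gene (gene body plus 5 kb on either side), with a grey circle for the wt and a red diamond for the ΔIkE120 library. With peaks at the starts of other genes included, *Gatad2a* has the most covered bases in either library (4076 and 4945 bp). The symbols of *Rbbp4* (1650 and 1651 bp) and *Mbd3* (2638 and 2644 bp) overlap.

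*Chd4* encodes the remodeller, the ATPase that slides nucleosomes (chr6:125095980-125130591, forward strand). Its window held 2582 covered bases in wt cells and 2721 in ΔIkE120 cells, in 2 peaks in each list. The start peak lay wholly downstream of the gene start, 175 bp away in wt cells (chr6:125096155-125097349, 1195 bp) and 194 bp away in ΔIkE120 cells (1299 bp). It was the only member with this layout, which 16.6% of genes with a start peak in both lists had in wt cells and 17.9% in ΔIkE120 cells. RefSeq lists a further *Chd4* start at 125096163, which fell inside the wt peak and 11 bp short of the ΔIkE120 peak. The start peak was long but not tall: its length stood at the 83.3 percentile of the wt list and its fold enrichment, 2.92, at the 42.8 percentile. The other peak of the window, 1387 bp in wt cells, covers the start of *Nop2*, a nucleolar protein gene 35903 bp downstream. The paralog *Chd3* had the same layout, with a start peak 148 bp downstream in wt and 176 bp in ΔIkE120 cells and covered bases of 3198 and 3466. *Chd5*, a paralog known mainly from neurons and testis, had no start peak in either list. Its window held 0 covered bases in wt cells and 546 in ΔIkE120 cells, in 2 peaks inside the gene with -log10 q of 1.54 and 2.73.

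The MTA proteins form the scaffold that binds and activates the deacetylases, and their 3 genes differed in how the mark was spread. *Mta2* (chr19:8941920-8952300, forward strand) was the most densely covered of them, with 2256 of 20381 bp of its window (11.1%) in wt cells and 2008 bp (9.85%) in ΔIkE120 cells. Peaks of 553 bp and 934 bp flanked its start in wt cells, and peaks of 470 bp and 848 bp in ΔIkE120 cells. The downstream one had a -log10 q of 32.4 in ΔIkE120 cells, at the 99.3 percentile of that list, and of 22.5 in wt cells, at the 96.8 percentile. The remaining peak of the *Mta2* window covered the start of *Tut1*, which encodes a terminal uridylyltransferase.

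*Mta1* (chr12:113098248-113137206, forward strand) had the lowest ratio among the members, with 1735 covered bases in wt and 1357 in ΔIkE120 cells. The difference rested on 1 weak peak. A wt peak of 641 bp inside the gene (chr12:113128766-113129406), 30.5 kb from the start, had no counterpart in ΔIkE120 cells, and its -log10 q of 1.41 stood at the 2.93 percentile of the wt list. At the start the order was the other way, with 1094 bp in wt and 1170 bp in ΔIkE120 cells. Without the peaks below the list's median -log10 q the log2 ratio of *Mta1* was 0.31, so its direction depended on weak peaks. Without the peaks below the list's median fold enrichment the ratio was 0.78, past 1.5 fold. This cut also removed the wt start peak of 304 bp, which was not weak by -log10 q (67.9 percentile). Its fold enrichment, 2.99, lay just below the wt median of 3.04. That of the ΔIkE120 counterpart, 3.24, lay just above the median of its list, 3.16.

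*Mta3* (chr17:83706163-83823715, forward strand), the longest member gene, had 5 peaks in each list and 3297 and 3404 covered bases, 2.58% and 2.67% of its window. It was the only *Mta* gene whose start lay inside a peak, of 1298 bp in wt and 1218 bp in ΔIkE120 cells. A peak of 1080 bp in wt and 1002 bp in ΔIkE120 cells lay within the gene, 25.7 and 25.6 kb from the start. Of 3 further peaks near the gene end in each list, 1 had a fold enrichment of 4.18 in wt cells (83823203 to 83823503). Its -log10 q of 7.95 stood at the 72.2 percentile of the wt list. The ΔIkE120 peak there (83822887 to 83823323) shared 121 bp with the wt peak. It had a -log10 q of 1.46, at the 3.22 percentile of the ΔIkE120 list. The log2 ratio of the *Mta3* window was 0.05 with all peaks, -0.39 without those below the median -log10 q, and -0.23 with flanks of 10 kb.

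**Figure D3:**
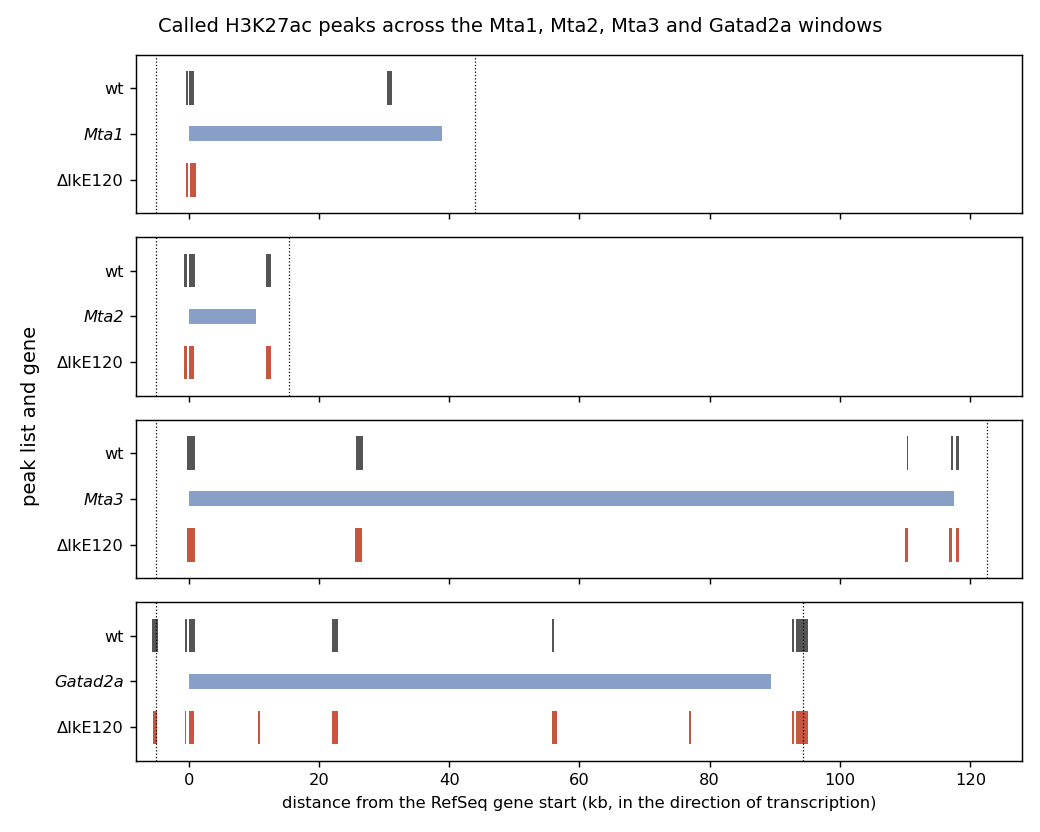
Called H3K27ac peaks along the windows of *Mta1*, *Mta2*, *Mta3* and *Gatad2a*, in kb from the RefSeq start along the direction of transcription, with wt peaks above (grey) and ΔIkE120 peaks below (red) the gene body (blue), and window ends as dotted lines. The *Mta1* peak 30.5 kb from the start is in the wt list alone, and the *Gatad2a* peaks at 10.7 kb and 76.8 kb are in the ΔIkE120 list alone.

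HDAC1 and HDAC2 are the deacetylases of NuRD and can stand in for each other in many cells, T-cell precursors included. Their genes showed the opposite order of the genotypes. *Hdac1* (chr4:129516104-129542646, reverse strand) had 2307 covered bases in wt and 2695 in ΔIkE120 cells, a log2 ratio of 0.22, and *Hdac2* (chr10:36974297-37001889, forward strand) had 1584 and 1374, a log2 ratio of -0.21. Neither passed 1.5 fold. Divided by the ratio of all covered bases, the log2 ratios were 0.41 for *Hdac1* and -0.02 for *Hdac2*. The *Hdac1* difference lay at the start. In wt cells peaks of 714 bp and 464 bp were separated by 175 bp (chr4:129542684-129542858), and in ΔIkE120 cells 1 peak of 1559 bp ran across that stretch (chr4:129541793-129543351). The ΔIkE120 peak stood at the 73.8 percentile of its list by fold enrichment, and the wt peaks at the 88 and 74.5 percentiles of theirs. The *Hdac2* window held a single peak in each list, of 1584 bp in wt and 1374 bp in ΔIkE120 cells, and both covered the start. It stood alone: the nearest other peak of the wt list lay 265332 bp to the left of the window and 129434 bp to the right. A further *Hdac1* peak, 1129 bp in wt and 1136 bp in ΔIkE120 cells, belonged to the start of *Marcksl1*, 29065 bp from that of *Hdac1*. Among the other class I deacetylase genes, *Hdac3*, of the NCoR complexes, had 2070 and 1916 covered bases, and *Hdac8*, which acts outside these complexes, had 947 and 751. The starts of both lay inside a peak in both lists.

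RBBP4 and RBBP7 are closely related WD-repeat proteins that hold histones for NuRD, Sin3 and PRC2, and RBBP4 does so for CAF-1. *Rbbp4* (chr4:129307100-129335370, reverse strand) had 1650 covered bases in wt and 1651 in ΔIkE120 cells, and *Rbbp7* (chrX:162760372-162779090, forward strand) had 1731 and 1599. Each window held 2 peaks, both at the start, and the start windows had 1613 and 1606 covered bases in wt cells, at the 92.3 and 92 percentiles of genes with a start peak. In ΔIkE120 cells they had 1644 and 1482, at the 94.4 and 86.2 percentiles. The covered share of the window was 4.31% for *Rbbp4* in both lists, and 6.03% in wt and 5.57% in ΔIkE120 cells for *Rbbp7*. They differed in what lies upstream. The start of *Zbtb8os*, on the opposite strand, is 162 bp from that of *Rbbp4*, so the peak of 818 bp upstream of *Rbbp4* in wt cells is also the peak downstream of *Zbtb8os*, and it had a -log10 q of 16.8. The *Rbbp7* peak upstream, of 634 bp, had a -log10 q of 3.47 in wt cells, at the 42.7 percentile of the list. In ΔIkE120 cells it was 452 bp long, with a -log10 q of 1.75 at the 8.80 percentile. The downstream peak of *Rbbp7* began 29 bp after the start in wt cells (162760401) and before it in ΔIkE120 cells (162760343), the only member start whose placement differed between the lists. The downstream peak of *Rbbp4* had the highest -log10 q of all member peaks in either library, 29.1 in wt and 34.1 in ΔIkE120 cells. *Hdac1* and *Rbbp4* are both on chromosome 4, with 207 kb and other genes between their starts.

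MBD3 and GATAD2A join the deacetylase and the remodeller parts of the complex, and MBD2 takes the place of MBD3 in a separate form of NuRD that binds methylated DNA. *Mbd3* (chr10:80392539-80399531, reverse strand) is the shortest member gene and had the largest covered share of its window, 15.5% in wt and 15.6% in ΔIkE120 cells, with 2638 and 2644 bp. Of its 4 peaks per list, 2 flanked the start, 1057 bp downstream and 759 bp upstream in wt cells, and the other 2 lay at the start of *Mex3d*, 11880 bp away. The stretch between the start peaks was 415 bp in wt and 429 bp in ΔIkE120 cells. *Mbd2* had a start peak that lay wholly downstream of the start in both lists, and 3325 and 2709 covered bases, a log2 ratio of -0.30.

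*Gatad2a* (chr8:69907069-69996402, reverse strand) had the most peaks, 7 in wt and 9 in ΔIkE120 cells, and the highest ratio, with 4076 and 4945 covered bases. Of all gene windows with a ratio, 91.4% lay at or below that of *Gatad2a*. These counts take in peaks at the starts of *Ndufa13* and *Tssk6*. Such peaks held 1138 and 332 bp of the window in wt cells, and 1152 and 274 bp in ΔIkE120 cells. Without peaks at other starts the log2 ratio was 0.43. The excess in ΔIkE120 cells lay within the gene and not at the start, where 1245 bp were covered in wt and 1064 bp in ΔIkE120 cells. A peak 55.8 kb from the start was 233 bp long in wt and 770 bp in ΔIkE120 cells. ΔIkE120 peaks of 254 bp and 309 bp, 10.7 and 76.8 kb from the start, had no wt counterpart (chr8:69985470-69985723 and chr8:69919279-69919587). The -log10 q of the latter pair was 2.3 and 1.79. The log2 ratio, 0.28, was above 0 in 7 of 8 alternative settings, at 0.09 without the peaks below the median fold enrichment and 0.65 in the gene body without flanks. It was -0.05 without the peaks below the median -log10 q. Among peaks inside the member genes and away from the gene start, the highest fold enrichment was also in *Gatad2a*. This peak lay 22 kb from the start in both lists, with a fold enrichment of 5.12 in wt cells (849 bp, the 95.3 percentile of the list) and of 6.80 in ΔIkE120 cells (962 bp, the 99.5 percentile). RefSeq lists a further *Gatad2a* start at 69974383, 20 bp before the wt peak and 9 bp before the ΔIkE120 peak. The paralog *Gatad2b* had its start between peaks, as *Gatad2a* did, with 2070 covered bases in wt and 1782 in ΔIkE120 cells.

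Peaks without a counterpart in the other list were counted next. Of 32 wt peaks in the member windows 1 (3.12%) had no overlap with a ΔIkE120 peak, against 25.6% of all wt peaks. Of 32 ΔIkE120 peaks 2 (6.25%) had no overlap with a wt peak, against 13.6% of all. When a counterpart had to cover 50% of the peak, the shares were 6.25% of member peaks against 31.9% of all in wt cells, and 15.6% against 17.8% in ΔIkE120 cells. The median -log10 q of peaks with no overlap at all over the genome was 2.15 in the wt list and 2.04 in the ΔIkE120 list, beside 5.79 and 5.39 for shared peaks. By position, 17 wt member peaks lay at the start, 6 elsewhere in the gene and 9 in the flanks, and 16, 7 and 9 in ΔIkE120 cells. Of the 15 wt peaks away from the member's own start, 7 lay at the start of another protein-coding gene. The shares over all peaks were not split by position, so they are not a like background for member peaks, which lay mostly at gene starts. A start peak in the wt list alone was seen at 1.11% of all genes, and in the ΔIkE120 list alone at 0.482%.

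Genes of related complexes were measured in the same way. Of the other NuRD subunit genes (*Chd3*, *Chd5*, *Mbd2*, *Gatad2b* and *Cdk2ap1*), 4 of 5 had a start peak in both lists, and none of the 4 over the 500 bp minimum passed 1.5 fold. All 12 Sin3 genes had one, with log2 ratios from -0.61 at *Sap18*, the only one past 1.5 fold, to 0.42 at *Brms1*, and a median of -0.12. So did all 6 CoREST genes, from -0.89 at *Hmg20b*, again the only one past 1.5 fold, to 0.12 at *Kdm1a*, with a median of -0.05. The 5 PRC2 genes ran from -0.15 at *Ezh2* to 0.17 at *Suz12*, and the 2 CAF-1 genes from -0.36 at *Chaf1a* to 0.07 at *Chaf1b*, with start peaks at all of them in both lists. Of BAF, a remodelling complex that also contains Ikaros in T cells, all 7 genes had a start peak, and the ratios ran from -0.37 at *Smarca4* to 0.18 at *Smarcb1* with a median of -0.11. No PRC2, CAF-1 or BAF gene passed 1.5 fold.

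The RefSeq promoter table (GRCm38.p6, 250 bases before to 50 after a start) held 8 of the 10 members, all but *Mta3* and *Hdac1*. Their promoters were rich in G and C, with a median of 66.3%, beside 61.7% over 7646 promoters of genes with a start peak in both lists and 50.7% over 9846 promoters of other coding genes. The median ratio of observed to expected CpG was 0.974, beside 0.804 and 0.278. Words were searched on both strands at the first start listed. GGGCGG, the core bound by Sp and Klf factors, was in 8 of 8 member promoters and in 68.3% of promoters with a start peak in both lists (35.9% of all 27025). CCAAT, bound by NF-Y, was in 5 (*Chd4*, *Gatad2a*, *Mbd3*, *Rbbp4* and *Rbbp7*), beside 40.3% (37.9% of all). TGGGAA, the core of Ikaros sites, was in 1, *Rbbp7*, beside 22.2% (25.5% of all), and CCGGAA, an Ets core, in 1, *Mta2*, beside 32.9% (15.2%). CACGTG was in *Rbbp4* alone (10.9%, and 7.24% of all) and TATAAA in *Mbd3* alone (6.28%, and 14.2%). GCGCATGC of Nrf1 (6.58%, and 2.80%) and AAGATGGC of Yy1 (5.44%, and 2.88%) were in 0 of 8. GGGCGG and CCGGAA are not exclusive to these factors, and a match is a description of the letters only.

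The promoters of the paralog pairs show where the called peaks stop. Capitals mark bases that lay in no peak of either list, and lower case marks bases covered in at least 1 list. All are given 5′ to 3′ on the strand of the gene. For *Rbbp4* (chr4:129335321-129335620, reverse strand) 237 of the bases were in neither list, with a G and C share of 70.5%, beside 61.9% of those in a peak. For *Rbbp7* (chrX:162760122-162760421, forward strand) 221 were in neither list, and the 79 lower case bases at the 3′ end belong to the ΔIkE120 peak, which reached further upstream than the wt peak. For *Mta2* (chr19:8941670-8941969, forward strand) 213 were in neither list, with 3 matches of CCGGAA over both strands of the promoter, and for *Mta1* (chr12:113098028-113098327, forward strand) 124, in a promoter with 81% G and C. The *Mta2* matches are not all separate sites, since those on either strand of TTCCGGAA overlap. The start listed for *Mta1* is 30 bp downstream of the gene start used above. For *Hdac2* (chr10:36974294-36974593, forward strand) all 300 bases lay in peaks of both lists, but its listed start is 247 bp downstream of the gene start, so the stretch shown lies almost wholly on the gene side of that start.
Rbbp4: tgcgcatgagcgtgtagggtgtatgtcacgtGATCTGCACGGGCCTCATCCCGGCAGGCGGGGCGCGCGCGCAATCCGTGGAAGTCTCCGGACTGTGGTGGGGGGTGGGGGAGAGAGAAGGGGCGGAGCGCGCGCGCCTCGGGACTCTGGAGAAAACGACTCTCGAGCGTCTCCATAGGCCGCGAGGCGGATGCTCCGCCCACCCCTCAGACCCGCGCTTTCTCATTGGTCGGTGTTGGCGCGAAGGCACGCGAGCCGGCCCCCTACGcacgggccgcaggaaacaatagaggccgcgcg
Rbbp7: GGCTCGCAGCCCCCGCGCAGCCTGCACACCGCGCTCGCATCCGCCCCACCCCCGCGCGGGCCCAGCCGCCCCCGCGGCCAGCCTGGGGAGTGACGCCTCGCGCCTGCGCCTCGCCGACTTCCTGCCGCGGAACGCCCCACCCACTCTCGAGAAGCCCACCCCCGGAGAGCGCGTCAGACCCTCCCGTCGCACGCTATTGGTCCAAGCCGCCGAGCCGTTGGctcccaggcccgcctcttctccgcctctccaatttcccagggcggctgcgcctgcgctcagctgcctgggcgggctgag
Mta2: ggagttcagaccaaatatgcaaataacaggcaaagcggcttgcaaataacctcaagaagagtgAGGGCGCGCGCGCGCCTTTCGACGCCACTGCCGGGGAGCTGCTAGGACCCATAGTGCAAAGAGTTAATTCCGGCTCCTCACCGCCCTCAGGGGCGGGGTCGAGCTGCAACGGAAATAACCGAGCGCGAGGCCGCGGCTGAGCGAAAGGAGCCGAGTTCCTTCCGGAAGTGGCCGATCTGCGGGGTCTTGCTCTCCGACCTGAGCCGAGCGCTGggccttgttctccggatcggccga
Mta1: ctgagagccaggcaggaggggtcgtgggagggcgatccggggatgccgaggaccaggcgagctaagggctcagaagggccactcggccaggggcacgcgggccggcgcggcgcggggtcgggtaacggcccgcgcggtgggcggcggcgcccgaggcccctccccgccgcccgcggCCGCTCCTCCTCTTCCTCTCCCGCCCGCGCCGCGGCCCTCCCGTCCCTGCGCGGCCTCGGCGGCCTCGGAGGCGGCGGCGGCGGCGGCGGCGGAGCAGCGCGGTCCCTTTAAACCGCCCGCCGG
Hdac2: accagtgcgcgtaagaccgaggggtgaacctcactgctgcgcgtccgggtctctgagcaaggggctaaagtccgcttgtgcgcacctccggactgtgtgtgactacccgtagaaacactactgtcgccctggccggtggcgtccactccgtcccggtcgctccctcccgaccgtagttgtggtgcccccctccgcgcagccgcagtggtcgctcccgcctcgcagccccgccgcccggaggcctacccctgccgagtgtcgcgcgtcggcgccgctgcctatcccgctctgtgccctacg

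The inner promoter of *Gatad2a* (chr8:69974334-69974633, reverse strand) is shown because the tallest peak of the member windows in ΔIkE120 cells reached into it. Peaks at starts of other genes were left out of this ranking. The peak covered 30 bases at the 3′ end of the promoter in wt cells and 41 in ΔIkE120 cells. This promoter lies inside the gene body, and 259 of its bases were in no peak of either list (capitals). It holds 1 match of TGGGAA, 1 of CCGGAA and 4 of GGGCGG on either strand.
Gatad2a, inner start: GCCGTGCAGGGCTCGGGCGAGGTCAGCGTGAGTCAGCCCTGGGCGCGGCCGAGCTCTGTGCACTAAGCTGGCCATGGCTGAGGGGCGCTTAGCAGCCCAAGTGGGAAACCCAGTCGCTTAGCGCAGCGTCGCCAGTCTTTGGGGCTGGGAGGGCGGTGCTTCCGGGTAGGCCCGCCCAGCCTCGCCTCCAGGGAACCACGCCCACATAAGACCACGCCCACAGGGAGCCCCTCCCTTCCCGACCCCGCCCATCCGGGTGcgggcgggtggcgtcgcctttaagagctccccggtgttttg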

How the data were processed

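H3K27ac ChIP-seq peak lists of wt and ΔIkE120 P5424 cells were analysed, grouped by their sample labels. The submitters' processing notes name Bowtie2 2.3.4.3, Bowtie 1.0.0, deepTools 3.2.1 and MACS2 2.1.1, without their order, and the build GRCm38. The authors used an input sample. The deposited lists give each peak a score, a fold enrichment over background, and the -log10 of its p-value and q-value. Peaks were called per library, and the depth is not known. The 4C libraries were not used here.

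Genes were RefSeq GRCm38.p6 protein-coding genes, and 745 without a strand in the tables used were left out. Exons were not used here. The position of IkE120 was taken from the methods of the study, in the same build. The start was the outermost RefSeq position on the strand. Covered bases are window bases inside called peaks, and windows were called at 1.5 fold where the mean over both lists was at least 500 bp. No test was run. All members, and fixed lists of related genes, are named. The result of 1 marker list is not reported here. The members and lists were chosen with earlier results of these data known. The overlap code was checked on simulated lists of 300 peaks against an exhaustive search, with 0 differences over 2000 windows. Alternatives were flanks of 0, 2 and 10 kb, start windows of 0.5 and 2.5 kb, stricter or equal-sized peak lists, scaling by all covered bases, leaving out peaks at other starts, a fold of 2, no minimum of covered bases, and an overlap of 50%. Starts from the RefSeq promoter table, for the 8 members it holds, were added after seeing the data. Python 3.11.15, numpy 2.4.6, pandas 2.3.3 and matplotlib 3.10.9 were used.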

Additional observations from a re-analysis of the deposited data

How the results depend on the processing

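The median log2 ratio of the 10 member windows lay between -0.09 and 0.19 over 8 alternatives (flanks, peak subsets, scaling and leaving out peaks at other starts). Single members moved by more than 1.5 fold in 3 of 80 comparisons, all at *Mta1*, which was above 0 in 3 of 8 alternatives. No member passed a fold of 2 with all peaks, or 1.5 fold without a minimum of covered bases. The share of all gene windows was not taken at these settings. Counts past 1.5 fold were also taken under those 8 alternatives, a choice made after seeing the data: 1 member was higher in ΔIkE120 cells without flanks (*Gatad2a*; 2.78% of all windows) and 1 with peaks limited to the median fold enrichment or above (*Mta1*; 5.52%), in place of 0, and 0 were lower in any. Start peaks were found at 10 of 10 members in each list with start windows of 0.5 and 2.5 kb and with peaks chosen by -log10 q, but not with those chosen by the median fold enrichment, where 9 of 10 had one in either list, *Chd4* being the exception. Of 21142 genes, 8375 had a start peak in both lists with the median -log10 q as the limit, and 8019 with the median fold enrichment. Shares over all genes were not taken with the other start windows or with equal-sized lists. With an overlap of 50% of the peak, 2 wt and 5 ΔIkE120 member peaks had no counterpart, in place of 1 and 2, beside 31.9% of all wt and 17.8% of all ΔIkE120 peaks. Starts between peaks, an alternative set chosen after seeing the data, numbered 3 in wt cells when peaks below the median fold enrichment were left out, in place of 6, since this removes weaker upstream peaks. Of all genes with a start peak in both lists, 6.1% had this layout in wt cells at that limit. The alternative that takes starts from the promoter table, also added later, applies to the 8 members it holds. The 11 other counts of starts between peaks, over 6 alternatives in both lists, lay between 4 and 6. Among these alternatives, shares over all genes were taken only for the limits on fold enrichment and -log10 q, and are given above. No paired analysis was possible because each genotype has 1 library. Depth is not known, so a peak missing from a list may be a peak below its threshold.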
